A study of Mus musculus with 8 samples.

Results

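The genes described here are 7 regulators of mitochondrial biogenesis in mouse Paneth cells. They are the estrogen-related receptors *Esrrg* and *Esrra*, the coactivators *Ppargc1a* and *Ppargc1b*, the transcription factors *Nrf1* and *Gabpa*, and *Tfam*. The product of *Tfam* packages mitochondrial DNA and helps to start its transcription. All 7 genes were taken by name from the 55414 Ensembl gene identifiers of the count table. They were selected on log2 differences of the diet comparison that were already known. Their values in that comparison are therefore a description and carry no test. The libraries came from small intestinal Paneth cells of C57BL/6J mice, sorted by flow cytometry. After 7 weeks on either chow, 4 mice had received the standard diet (called control here) and 4 mice the zinc depleted diet, with 1 RNA-seq library per mouse. All carried the same background, no transgene or other agent is named beside the diet, and their age was not stated.

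Estrogen-related receptors are orphan nuclear receptors that bind DNA without estrogen and switch on genes of oxidative metabolism once a coactivator of the PGC-1 family joins them. PGC-1 coactivators also work through NRF1 and through GABPA, the DNA-binding subunit of nuclear respiratory factor 2, which in turn drive nuclear genes of the respiratory chain and *Tfam*. Paneth cells are long-lived secretory cells at the base of the crypts of the small intestine that fill their granules with antimicrobial peptides and hold zinc there.

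Control libraries held 8557690 to 11826416 counts and zinc depleted libraries 9924102 to 12648005. A count of 0 allows a level of up to 3 counts, which is 0.237 to 0.351 CPM (counts scaled to a library total of 1000000), and this limit covers counting error only. It does not cover a gene that the table lists at 0 for another reason, as may hold for the mitochondrially encoded genes named below. The 8 Paneth cell markers, which include *Lyz1* and *Defa24*, summed to between 464974 and 572913 CPM on the control diet and between 524806 and 610166 CPM on the zinc depleted diet, so the label of the cells held. Of the markers of other cell types, those of stem and transit amplifying cells summed to 1378 to 2258 CPM on the control diet and to 527 to 1118 CPM on the zinc depleted diet, with no overlap. Enteroendocrine cell markers summed to 33.4 to 88.0 and 17.0 to 29.4 CPM, also without overlap. After the TMM scaling described below they overlapped, at 25.0 to 92.8 and 20.1 to 40.9 CPM. Sums that overlapped in CPM were those of enterocyte markers (242 to 388 and 144 to 437 CPM) and goblet cell markers (2492 to 3109 and 2019 to 4372 CPM). Immune cell markers overlapped too, at 37.6 to 143 and 39.3 to 71.2 CPM. Tuft cell markers summed to 423 CPM in replicate 3 of the zinc depleted diet and to 15.4 to 93.8 CPM in the other mice. Stromal and erythroid markers stayed under 1.0 CPM in sum, with 6 of 8 and 2 of 5 of them at 0 in every mouse. In sorted bulk samples, fewer cells of a type and less RNA per cell cannot be told apart.

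Diets were compared over 10911 genes with edgeR's quasi-likelihood test after TMM scaling, which corrects each library for its composition. Scaling matters for these libraries, because the TMM factors ran from 0.928 to 1.57 on the control diet and from 0.719 to 1.10 on the zinc depleted diet. Each mouse is 1 library. The p-values of this fit set a diet difference against the spread between mice of the same diet, which is estimated partly from other genes. At an adjusted p under 0.05, 44 genes were called, which is 0.403% of those tested, and 28 of them (0.257%) were lower on the zinc depleted diet. All 7 regulators passed the filter on low counts. *Esrrg* was the 1 member among the 44, on the lower side, and since the members were chosen with this contrast known nothing is read from that count.

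*Esrrg* (ENSMUSG00000026610, chromosome 1, 187340988 to 187947082 on the plus strand of GRCm39, 5 annotated transcripts) encodes ERRγ, the receptor of the family that is most tied to highly oxidative tissues. Its level was 16.8, 14.4, 7.71 and 11.1 CPM in control replicates 1 to 4, from 199, 151, 66 and 111 counts. On the zinc depleted diet it was 5.64, 3.18, 4.97 and 3.00 CPM, from 56, 35, 57 and 38 counts. All control mice thus lay above all zinc depleted mice, and the lowest control value (replicate 3) was the nearest to the other diet. The mean was 12.5 ± 3.96 CPM (SD, n = 4) against 4.20 ± 1.31 CPM. With TMM scaling the values ran from 8.31 to 12.4 CPM on the control diet and from 3.55 to 6.04 CPM on the zinc depleted diet, again without overlap. The fitted log2 difference (zinc depleted minus control) was -1.22 with an SE of 0.22 and a 95% interval from -1.69 to -0.76, which is a level 2.34-fold higher on the control diet. The size of this difference lay at percentile 98.5 of all genes tested. The biological coefficient of variation that edgeR fitted for *Esrrg*, 20.2%, lay near the median of all genes, 20.4%. This fitted spread within diets borrows from other genes and leaves out counting error. The observed coefficient of variation in CPM was 31.6% on the control diet and 31.2% on the zinc depleted diet.

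The call of *Esrrg* did not hold in every fit. The difference was negative in 15 of 15 alternative fits and past the threshold in 9 of them. It missed the threshold when libraries were scaled by total counts alone (-1.58), and when control replicate 2 (-1.14), control replicate 4 (-1.18), or replicate 2 (-1.20), replicate 3 (-1.21) or replicate 4 (-1.11) of the zinc depleted diet was left out. Stem and transit amplifying cell markers were lower on the same diet: 8 of 8 had a negative log2 difference, the median was -0.80, and 1 of them, *Top2a*, was called at -1.18. Their part in the *Esrrg* result was not tested.

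**Figure D1:**
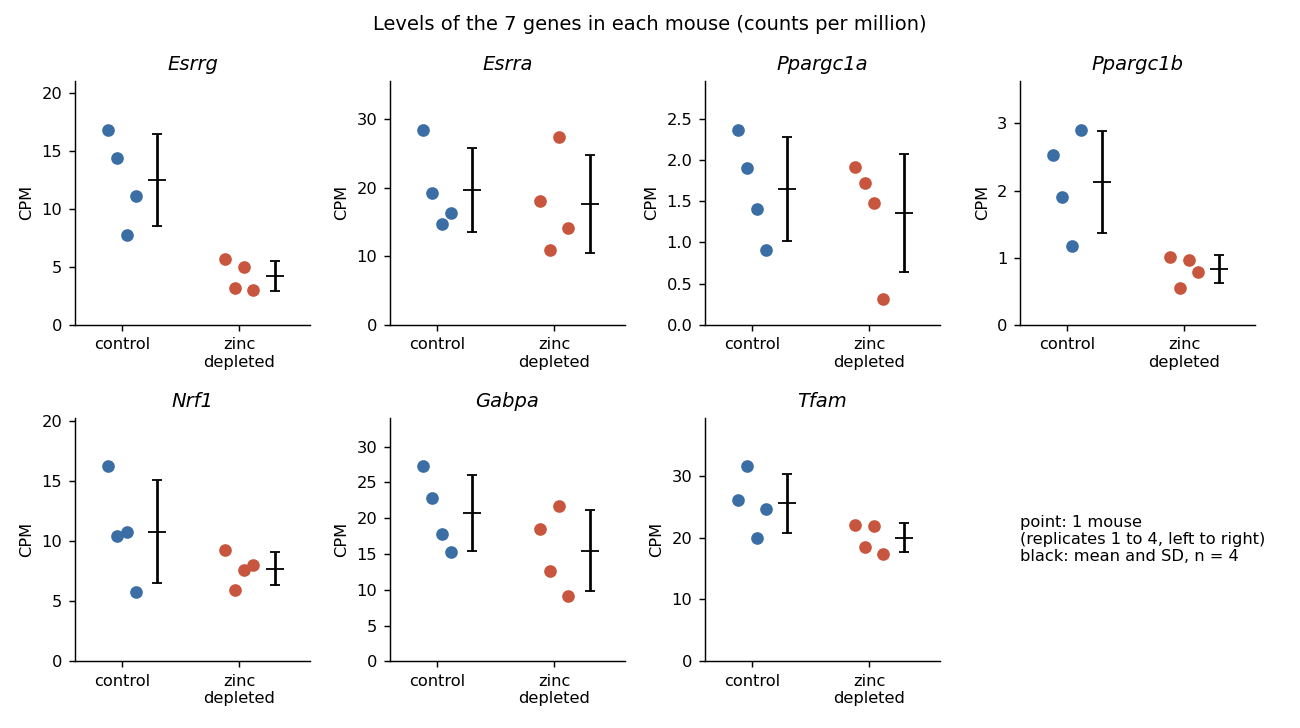
Levels of the 7 genes in CPM (vertical axes, each from 0), with 1 point per mouse for the control diet (blue) and the zinc depleted diet (red), replicates 1 to 4 from left to right, and the mean and SD in black (n = 4). *Esrrg* and *Ppargc1b* are the panels in which the 2 diets do not overlap, from 7.71 CPM up against 5.64 CPM down for *Esrrg* and from 1.17 CPM up against 1.01 CPM down for *Ppargc1b*.

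Mouse *Esrrg* has 4 entries in the RefSeq table of promoters, built on GRCm38.p6, and the first transcribed bases of 1 of them lie in a GENCODE transcript. The 250 bases before that start (chr1:187997577-187997826, plus strand) are shown because *Esrrg* has the largest difference of the 7 genes; the stretch is 61.2% G and C. It holds none of the 4 motifs searched, so no base is in capitals:

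Esrrg: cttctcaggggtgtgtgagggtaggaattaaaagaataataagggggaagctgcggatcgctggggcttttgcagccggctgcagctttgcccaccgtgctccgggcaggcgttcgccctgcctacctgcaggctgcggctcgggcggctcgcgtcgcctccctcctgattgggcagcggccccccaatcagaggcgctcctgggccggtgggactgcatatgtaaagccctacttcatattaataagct

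*Esrra* (ENSMUSG00000024955, chromosome 19, 6888338 to 6899336, minus strand, 14 transcripts) encodes ERRα, the more broadly expressed receptor. It was measured at 28.5, 19.2, 14.7 and 16.3 CPM in the control mice and at 18.1, 10.9, 27.5 and 14.1 CPM in the zinc depleted mice. The diets overlapped over most of their range, with control replicate 1 and zinc depleted replicate 3 standing above the other mice. The means were 19.7 ± 6.16 and 17.6 ± 7.19 CPM (SD, n = 4 each). After TMM scaling the control mice drew together to 16.9 ± 0.972 CPM and the zinc depleted mice stood at 19.1 ± 4.38 CPM, with replicate 3 of that diet at 25.1 CPM and its other mice at 15.1 to 19.4 CPM. That replicate is the one with 423 CPM of tuft cell markers, whose part in the *Esrra* value was not tested. The log2 difference was 0.17 (SE 0.17, 95% interval -0.19 to 0.54), and it was -0.16 when scaled by total counts alone. *Esrra* shares 1479 exon bases, 29.6% of its exons, with *Trmt112* on the opposite strand. *Trmt112* had 62 to 140 counts per mouse, and whether the counting used strand is not given in the sources used here, so reads of the 2 genes may not have been told apart.

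Because the receptors recognise the same DNA element, their balance was followed as the share of *Esrrg* in the summed TPM (counts per exon base, scaled to a total of 1000000) of *Esrrg* and *Esrra*. *Esrrg* made up 32.2%, 37.5%, 29.6% and 35.4% of the pair in the control mice. In the zinc depleted mice it made up 20.0%, 19.0%, 12.7% and 14.6%. The shares did not overlap between diets, with means of 33.7% ± 3.48 and 16.6% ± 3.48 (SD, n = 4 each). This ratio within a library does not depend on how libraries are scaled, but its size depends on the gene length used. Summed exons span 6208 bases for *Esrrg* and 4990 for *Esrra*, and the longest transcripts 5374 and 2580. Another length would move all shares in the same direction. Reads of *Trmt112* may also be among the *Esrra* counts, so the shares are not exact proportions of the 2 receptors. The sum of the pair overlapped between diets, at 5.19 ± 2.11 and 3.39 ± 1.45 TPM. As the share is built from the *Esrrg* and *Esrra* counts above, it is another view of the same values, not a separate result.

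Among the coactivators, *Ppargc1b* was low and apart between diets, while *Ppargc1a* was low and overlapped. *Ppargc1b* (ENSMUSG00000033871, chromosome 18, 61431195 to 61533735, minus strand, 9 transcripts) encodes PGC-1β, a coactivator of estrogen-related receptors. It had 30, 20, 10 and 29 counts in the control mice, which is 2.54, 1.90, 1.17 and 2.91 CPM. In the zinc depleted mice it had 10, 6, 11 and 10 counts, which is 1.01, 0.544, 0.959 and 0.791 CPM. The lowest control mouse, replicate 3, stood at 1.17 CPM against 1.01 CPM in the highest zinc depleted mouse, a gap of few reads. The log2 difference was -1.04 with an SE of 0.44 and a 95% interval from -1.96 to -0.11, a level 2.05-fold higher on the control diet, and *Ppargc1b* was not among the 44 genes called. With each mouse left out in turn the difference ran from -1.17 to -0.72.

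*Esrrg* and *Ppargc1b* were the 2 of 7 members without overlap between the diets, both lower on the zinc depleted diet, in CPM and after TMM scaling alike. Over all genes tested, 6.53% were without overlap and lower on that diet in CPM, and 3.79% after TMM scaling. The members' count was known when they were chosen, and nothing is read from it.

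*Ppargc1a* (ENSMUSG00000029167, chromosome 5, 51611592 to 51725068, minus strand, 14 transcripts) encodes PGC-1α, the coactivator that is induced by cold, fasting and exercise in other tissues. It had 28, 20, 12 and 9 counts in the control mice, which is 2.37, 1.90, 1.40 and 0.902 CPM. It had 19, 19, 17 and 4 counts in the zinc depleted mice, which is 1.91, 1.72, 1.48 and 0.316 CPM. Replicate 4 was the lowest of its diet on both sides, and the diets overlapped. Its log2 difference of 0.10 had an SE of 0.49 and a 95% interval from -0.93 to 1.14, so a difference of up to about that size in either direction was not detectable at this depth. The difference was -0.29 when scaled by total counts alone. The biological coefficient of variation fitted by edgeR was 39.0% for *Ppargc1a* (percentile 94.1 of all genes) and 32.6% for *Ppargc1b* (percentile 86.1).

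**Figure D2:**
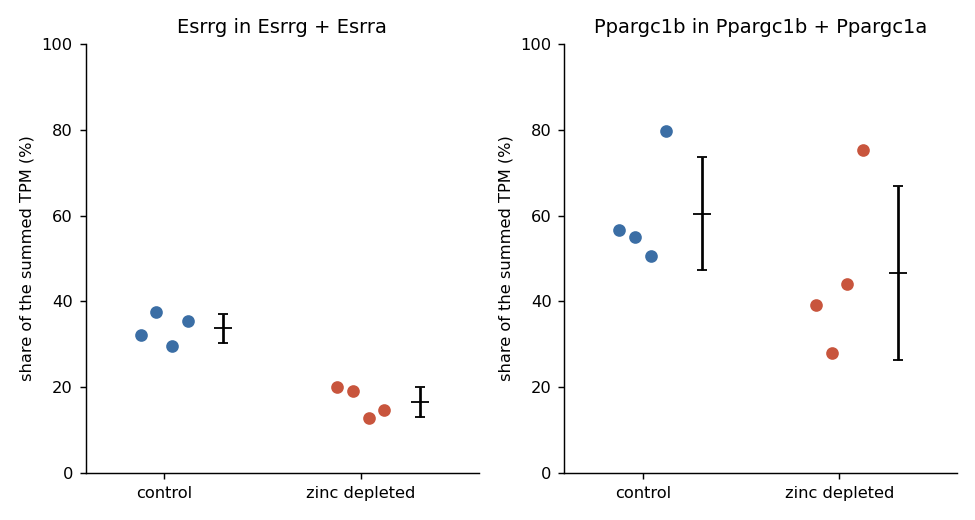
Share of *Esrrg* in the summed TPM of *Esrrg* and *Esrra* (left) and of *Ppargc1b* in that of *Ppargc1b* and *Ppargc1a* (right), in percent from 0 to 100, with 1 point per mouse (replicates 1 to 4 from left to right) and the mean and SD in black (n = 4). The *Esrrg* share lies between 29.6% and 37.5% in the control mice and between 12.7% and 20.0% in the zinc depleted mice, whereas the *Ppargc1b* shares overlap.

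*Ppargc1b* made up 60.5% ± 13.1 of the summed TPM of both coactivators in the control mice, with a range from 50.5% to 79.7%. In the zinc depleted mice it made up 46.6% ± 20.3, from 27.8% to 75.3%. These shares overlapped, and replicate 4 was the highest on each diet. Their size also depends on the gene length used.

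The 2 DNA-binding factors downstream of the coactivators overlapped between diets. *Nrf1*, nuclear respiratory factor 1 (ENSMUSG00000058440, chromosome 6, 30047892 to 30153462, plus strand, 48 transcripts), binds the promoters of many respiratory chain genes. It stood at 16.2, 10.5, 10.8 and 5.81 CPM in the control mice and at 9.27, 5.99, 7.59 and 8.06 CPM in the zinc depleted mice. The lowest of the 8 values belonged to control replicate 4 and the highest to control replicate 1. The log2 difference of *Nrf1* was -0.098 (SE 0.22, 95% interval -0.56 to 0.36).

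*Gabpa* (ENSMUSG00000008976, chromosome 16, 84631140 to 84660672, plus strand, 25 transcripts) encodes an ETS family factor. It stood at 27.2, 22.8, 17.8 and 15.3 CPM in the control mice and at 18.4, 12.6, 21.7 and 9.09 CPM in the zinc depleted mice. The 2 diets interleaved, with a zinc depleted mouse lowest and a control mouse highest. The log2 difference of *Gabpa* was -0.092 (SE 0.19, 95% interval -0.49 to 0.30). *Gabpa* shares 1995 exon bases, 23.7% of its exons, with *Atp5pf* on the opposite strand, a respiratory chain gene with 407 to 634 counts per mouse, against 115 to 322 counts of *Gabpa* itself. Its level is uncertain to that extent.

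*Tfam* (ENSMUSG00000003923, chromosome 10, 71061287 to 71074110, minus strand, 9 transcripts) was the most abundant of the 7 genes. Its counts were 308, 331, 171 and 246 in the control mice and 219, 204, 250 and 220 in the zinc depleted mice. In CPM these were 26.0, 31.5, 20.0 and 24.7 against 22.1, 18.5, 21.8 and 17.4. The control values reached higher in CPM, but control replicate 3 lay inside the range of the other diet. After TMM scaling the means were 22.8 ± 4.80 and 22.5 ± 2.72 CPM (SD, n = 4 each). The log2 difference of *Tfam* was -0.022 (SE 0.17, 95% interval -0.39 to 0.34).

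With TMM scaling and all mice, the log2 differences of *Esrra*, *Ppargc1a*, *Nrf1*, *Gabpa* and *Tfam* lay within 0.25 of 0. Scaled by total counts alone, *Nrf1* stood at -0.49, *Gabpa* at -0.43, *Tfam* at -0.36 and *Ppargc1a* at -0.29, in a fit that moved the median of all genes by -0.36. *Ppargc1a* stood at 0.44 without replicate 4 of the zinc depleted diet, and *Esrra* at 0.27 without replicate 2 of that diet. The median over all 7 genes was -0.092, beside -0.0052 over all genes tested, with 5 negative and 2 positive values. Outside *Esrrg*, none of the other 6 genes passed the threshold in any of 90 alternative fits (15 for each gene).

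**Figure D3:**
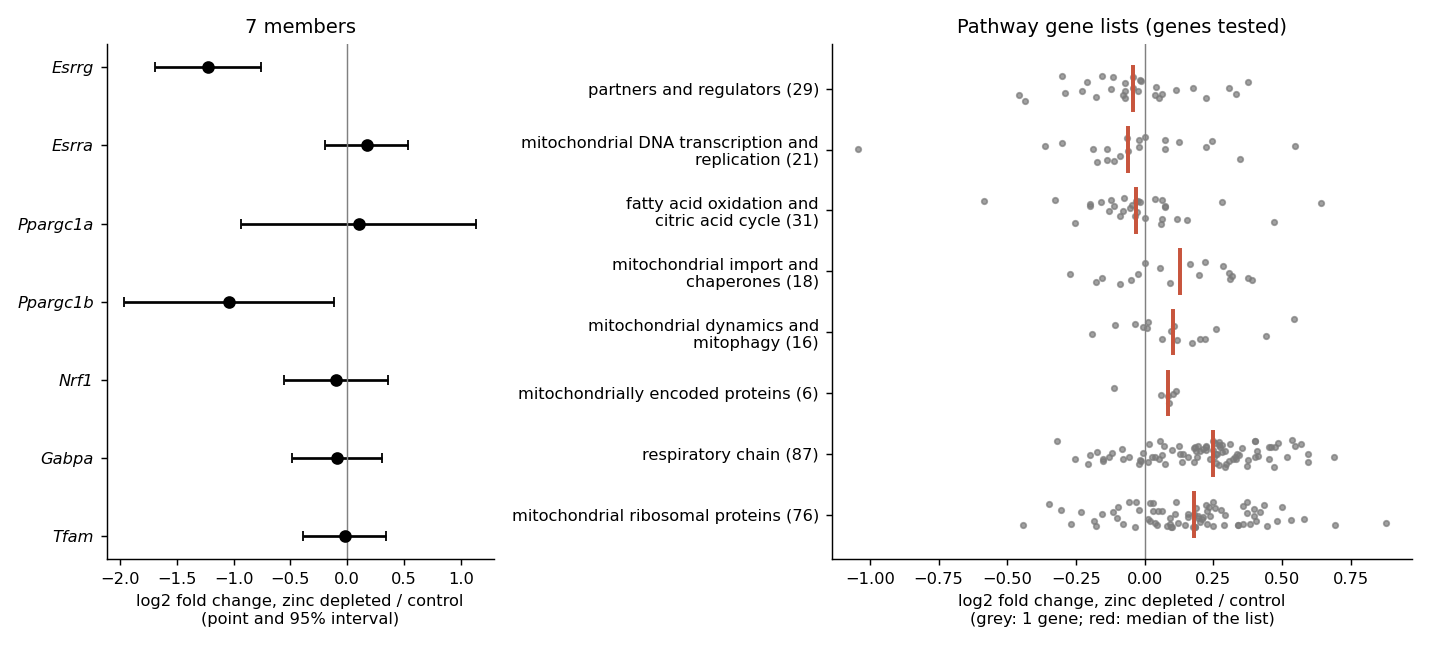
Log2 fold change (zinc depleted over control, horizontal axes) of the 7 members with the 95% interval of the fit (left) and of single genes of 8 pathway lists in grey with the list median in red (right; genes tested in parentheses). The intervals of *Esrrg* and *Ppargc1b* lie below 0, those of the other 5 members span 0, and the list medians lie between -0.059 and 0.25. The intervals are not adjusted for the number of genes, and the members were selected on this contrast, so they carry no test. *Ppargc1b* was not among the genes called.

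Per length, the 7 genes were put in order of their mean over both diets, and neighbours were compared within mice. Mean TPM over the 8 mice was 4.01 for *Tfam*, 3.14 for *Esrra*, 1.81 for *Gabpa*, 1.15 for *Esrrg*, 0.718 for *Nrf1*, 0.215 for *Ppargc1b* and 0.178 for *Ppargc1a*. Neighbours were compared on log2(TPM + 0.1) with an exact two-sided sign-flip permutation test over 8 mice, adjusted over the 6 pairs. The smallest possible p of this test is 0.00781. The order came from the means of the same mice, so these data set the direction of each pair before its test. *Esrra* was above *Gabpa* in 8 of 8 mice by 0.76 ± 0.29 (SD, exact p = 0.00781, adjusted 0.0156). *Gabpa* was above *Esrrg* in 8 of 8 mice by 0.78 ± 0.57, and *Nrf1* above *Ppargc1b* in 8 of 8 mice by 1.40 ± 0.56, with the same exact p and adjusted p. With no length, *Esrra* against *Gabpa* gave 0.046 (same permutation test, adjusted p = 0.872), and with the longest transcript 1.32. The difference between *Esrra* and *Gabpa* thus rests on the length used, and both share exons with a gene on the opposite strand. By diet, *Gabpa* exceeded *Esrrg* by 0.30 ± 0.29 on the control diet and by 1.26 ± 0.24 on the zinc depleted diet. The mean over 8 mice thus describes neither diet for that pair, and nothing is read from its p, which pools the diets. *Nrf1* exceeded *Ppargc1b* by 1.17 ± 0.76 and 1.63 ± 0.10 in the same order. These values by diet carry no test.

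*Tfam* was above *Esrra* in 6 of 8 mice by 0.40 ± 0.38 (exact permutation p = 0.0313, adjusted 0.0469). This call was lost without control replicate 2, 3 or 4 and without replicate 1, 2 or 4 of the zinc depleted diet, with differences of 0.34 to 0.41, and the sign turned (-0.36) when the longest transcript gave the length. *Esrrg* and *Nrf1* differed by 0.44 ± 0.68 (6 of 8 mice, exact permutation p = 0.141, adjusted 0.169), and the sign turned with the longest transcript (-0.67), since the 48 transcripts of *Nrf1* cover 10873 exon bases but the longest spans 4042. *Ppargc1b* and *Ppargc1a* differed by 0.14 ± 0.63 (5 of 8 mice, exact permutation p = 0.555). In both of these pairs the neighbours did not differ beyond their spread over all 8 mice, and their order was not the same on the 2 diets. Mean *Esrrg* was 1.75 TPM against 0.869 TPM of *Nrf1* on the control diet (*Esrrg* higher in 4 of 4 mice) and 0.541 against 0.566 TPM on the zinc depleted diet (2 of 4 mice). *Ppargc1b* was at 0.316 TPM against 0.203 TPM of *Ppargc1a* on the control diet (higher in 4 of 4 mice) and at 0.114 against 0.152 TPM on the zinc depleted diet (1 of 4 mice). These values per diet are part of the diet contrast and carry no test. In the other 4 pairs the upper neighbour had the higher mean on each diet.

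**Figure D4:**
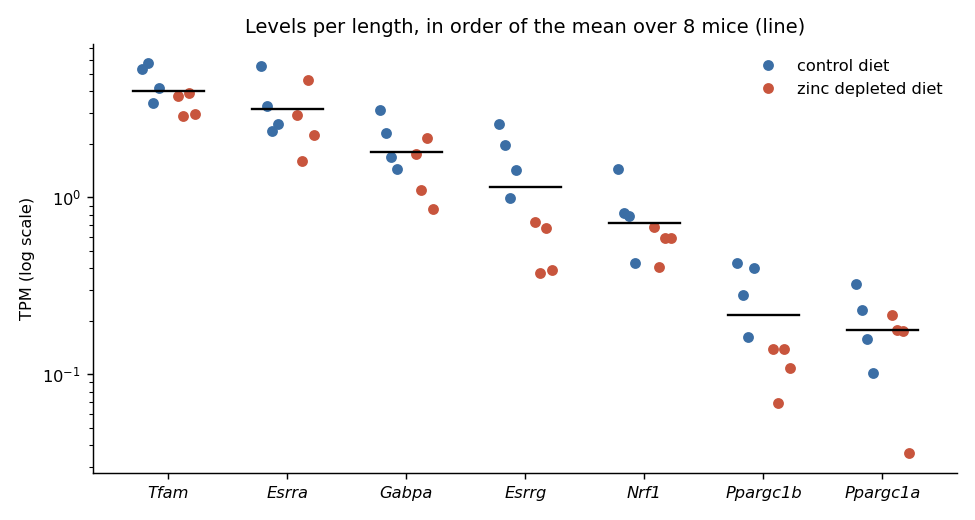
TPM of the 7 genes on a log axis, in order of the mean over 8 mice (black line), with 1 point per mouse, control diet in blue and zinc depleted diet in red. *Tfam* and *Esrra* lie at the top with means of 4.01 and 3.14 TPM, and both coactivators lie lowest with 0.215 and 0.178 TPM.

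The wider pathway was described by 8 lists with 280 genes tested in all, chosen like the members with results of these data known. By the edgeR fit described above, 0 of the 280 genes were called. Of the 280, 16 (5.71%) had an unadjusted p under 0.05, beside 10.5% of all genes tested. DESeq2 called 1 of them, *Acadl*, the long-chain acyl-CoA dehydrogenase of fatty acid oxidation, at a log2 difference of 0.66 (adjusted p = 0.0338). In the edgeR fit *Acadl* stood at 0.64 with an SE of 0.16 and an adjusted p of 0.097. Without the filter on low counts, edgeR called it as well (adjusted p = 0.0117).

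Partners and regulators of the 7 genes numbered 31, of which 29 were tested, 10 with a positive and 19 with a negative difference and a median of -0.044. The deacetylase *Sirt1*, which activates PGC-1α, stood at -0.44 (SE 0.23), the nuclear receptor *Ppara* at -0.46 (SE 0.36), and the mitochondrial deacetylase *Sirt3* at 0.38 (SE 0.34). The best expressed partners, *Ppard* with 56.4 and 39.3 CPM and *Yy1* with 54.4 and 36.8 CPM on the control and zinc depleted diet, stood at -0.12 and -0.21. None of the 29 had an unadjusted p under 0.05.

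Genes that copy and transcribe mitochondrial DNA alongside *Tfam* had a median of -0.059 (21 of 24 tested, 8 positive and 13 negative). Among them the accessory subunit of the mitochondrial DNA polymerase, *Polg2*, had the lowest value, -1.04, but with an SE of 0.61, and the elongation factor *Tefm* the highest, 0.55 (SE 0.32). The protease *Lonp1*, which degrades TFAM protein, stood at -0.19 (SE 0.15). Of the 13 proteins encoded by mitochondrial DNA, 6 were tested, with a median of 0.087. *mt-Co1* stood at 0.10 (SE 0.28) from 2511 and 2119 CPM, and *mt-Cytb* at 0.11 (SE 0.26). For 6 others, *mt-Co2*, *mt-Co3*, *mt-Atp6*, *mt-Atp8*, *mt-Nd3* and *mt-Nd4l*, 0 counts are listed in every mouse, and *mt-Nd6* had 31 counts in all, so these 7 gave no value. With *mt-Co1* at this level in the same libraries, a 0 listed for those 6 genes may be a missing value and is not read as a level.

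Fatty acid oxidation and citric acid cycle genes, classical targets of estrogen-related receptors, had a median of -0.030 (31 of 32 tested, 12 positive and 19 negative). The list ran from *Pdk4* at -0.59 (SE 0.60) to *Acadl* at 0.64 (SE 0.16), with *Slc25a20* at 0.47 (SE 0.27). *Hadh* stood at -0.33 (SE 0.17), *Sdha* at -0.25 (SE 0.14) and *Ogdh* at 0.15 (SE 0.16). Import and chaperone genes had a median of 0.13 (18 of 19 tested), with the chaperone *Hspa9* at -0.18 (SE 0.15) and *Timm10* at 0.39 (SE 0.30). Genes of mitochondrial dynamics and mitophagy had a median of 0.10 (16 of 17 tested), with the fission factor *Fis1* at 0.44 (SE 0.18) and the fusion GTPase *Opa1* at -0.19 (SE 0.15).

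Respiratory chain genes, classical targets of NRF1 and GABPA and here including 8 assembly factors named *Ndufaf*, had a median of 0.25, with 71 of 87 positive. Mitochondrial ribosomal protein genes had a median of 0.18, with 60 of 76 positive. The signs depended on the scaling: by total counts alone the median of all genes moved by -0.36, and those of the respiratory chain, ribosomal protein, import, dynamics and mitochondrially encoded lists turned to -0.066, -0.15, -0.18, -0.27 and -0.28. Relative to the median of all genes, the respiratory chain list stood 0.25 higher in TMM scaling and 0.30 higher by total counts, and the ribosomal protein list 0.19 and 0.22 higher. Cell type markers moved in the same TMM-scaled fit. Positive were 8 of 8 Paneth cell markers (median 0.45) and 6 of 6 tuft cell markers tested (median 1.12). Negative were 8 of 8 stem and transit amplifying cell markers (median -0.80). Summed tuft cell markers were high in 1 mouse only, replicate 3 of the zinc depleted diet (423 CPM), against 15.4 to 93.8 CPM in the other mice. The part of these 3 sets of markers in the list medians was not tested. *Ndufaf8* had the highest value of the respiratory chain list, 0.69 (SE 0.24), and the abundant ATP synthase subunits *Atp5f1b* and *Atp5f1a* stood at 0.013 and -0.15. None of these genes passed the adjusted threshold.

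Promoters of the members were searched for the elements that the members themselves bind, and for the metal response element core bound by the zinc sensor MTF1. RefSeq held 10 promoters of 6 of the 7 genes, all but *Ppargc1b*, each with 250 bases before the start. Searched on both strands were the estrogen-related receptor element TCAAGGTCA, the NRF1 element (GCGC, any base, then TGCGC), the ETS element CCGGAAG bound by GABPA, and the metal response core TGCACNC or TGCGCNC. The first 2 had no match in any of the 10 promoters, and they are held by 0.423% and 4.6% of all promoters and by 0.237% and 10.3% of those of the genes tested. The ETS element, held by 8.86% of all promoters and 18.5% of those of the genes tested, was found before the starts of *Tfam* (bases -47 to -41) and *Gabpa* (bases -93 to -87). The metal response core, held by 25.7% of all promoters and 36.1% of those of the genes tested, was found in 1 of the 4 *Esrrg* promoters (bases -234 to -228) and after the start of *Ppargc1a*. Each of these 2 elements was thus in 2 of 10 promoters of the members, a share near or below that of the genes tested. The first bases of that *Esrrg* transcript were not found in GENCODE. The 3 matches before a start are shown with the match in capitals, at chr10:71238073-71238102 (minus strand), chr16:84835020-84835049 (plus strand) and chr1:187651996-187652025 (plus strand) of GRCm38.p6:

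Tfam: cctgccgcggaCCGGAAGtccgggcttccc

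Gabpa: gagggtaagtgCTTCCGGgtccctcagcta

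Esrrg: cgcagggccgcTGCGCGCggggacacagcc

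A match of letters is no evidence of binding, and no match says only that these letters are not in the window. Of the genes tested with a promoter in the table, 21.8% held the ETS element. Among the lists the share was 52.6% for mitochondrial DNA transcription and replication (10 of 19 genes), 46.7% for dynamics and mitophagy, 41.2% for import and chaperones, 37.3% for mitochondrial ribosomal proteins, 25.9% for fatty acid oxidation and the citric acid cycle, 22% for the respiratory chain and 15.4% for partners and regulators. The NRF1 element was held by 12.2% of the genes tested. Its share was 26.7% for dynamics and mitophagy, 22% for the respiratory chain, 19.4% for mitochondrial ribosomal proteins, 18.5% for fatty acid oxidation and the citric acid cycle, 17.6% for import and chaperones, 15.8% for mitochondrial DNA transcription and replication and 7.69% for partners and regulators.

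Genes whose levels followed a member most closely over the 8 mice were ranked by Pearson's r of TMM-scaled log2 CPM among genes whose mean reached 5.0 CPM (7941 for *Esrrg* and *Esrra*, 7942 for *Ppargc1a*). These are descriptions over 8 mice that share library, depth and diet between the genes. For *Esrrg* they were *Gvin5* (r = 0.991), an interferon-inducible GTPase, *Sestd1* (0.989), *Add3* (0.977), an adducin of the membrane skeleton, *Cps1* (0.977), which makes carbamoyl phosphate for citrulline synthesis, and *Clca4b* (0.963). All 5 were lower on the zinc depleted diet without overlap in CPM, beside 6.53% of all genes tested. They were picked by r over both diets to a gene that itself differs by diet. Their separation is therefore tied to how they were picked, and nothing is read from it. *Gvin5* went from 32.0 to 75.8 CPM in the control mice and from 10.5 to 20.9 CPM in the zinc depleted mice, and *Cps1* from 257 to 468 and from 112 to 182 CPM. With each diet centred on its own mean, r was 0.93, 0.93, 0.89, 0.82 and 0.77 in the same order, and 0 of the 5 stayed among the nearest 5.

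**Figure D5:**
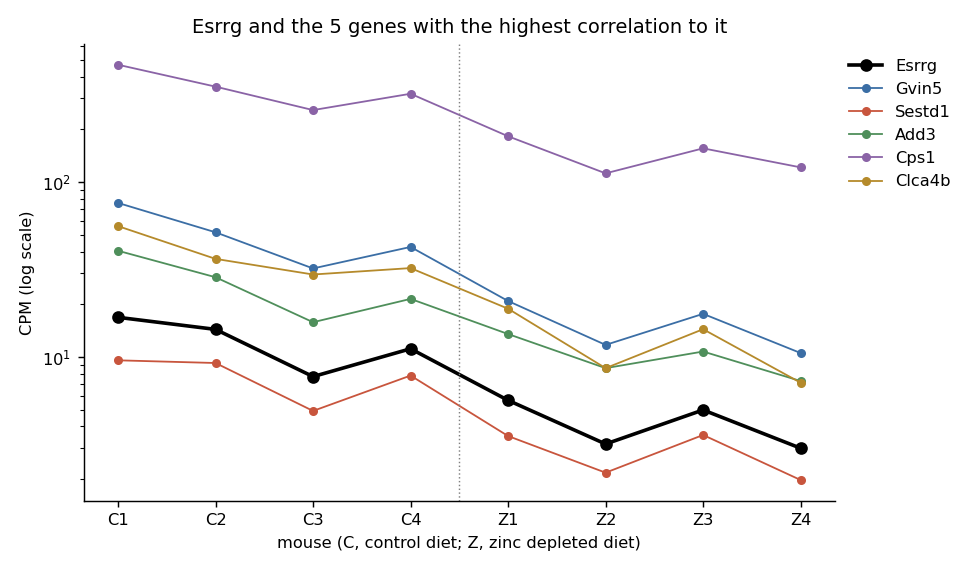
CPM on a log axis of *Esrrg* (black) and the 5 genes with the highest Pearson's r to it, in control mice C1 to C4 and zinc depleted mice Z1 to Z4; lines join the values of 1 gene and stand for no order of the mice. All 6 genes are lower in each zinc depleted mouse than in each control mouse, *Esrrg* with at most 5.64 CPM against at least 7.71 CPM. The 5 genes were picked by their likeness to *Esrrg* over both diets, so their separation is not a separate result.

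For *Esrra* the nearest genes were *Ctsc* (r = 0.942), the lysosomal protease cathepsin C, *Crat* (0.914), the carnitine acetyltransferase, *Tom1l2* (0.901), *Fbxo25* (0.897) and *Plcg2* (0.892), a phospholipase C. *Plcg2* ran from 2.27 to 40.7 CPM in the zinc depleted mice, with the highest value in replicate 3, the mouse that was also highest for *Esrra* among them and for tuft cell markers. With each diet centred, 0 of the 5 stayed among the nearest 5. For *Ppargc1a* they were *Cep68* (0.972), *Gm27162* (0.965), *Pcmtd1* (0.954), *Rfxank* (0.952) and *Kctd20* (0.951), of which 4 stayed after centring. *Ppargc1a* had 4 to 28 counts per mouse, and replicate 4 of the zinc depleted diet was the lowest mouse in CPM for it and for all 5 of these genes.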

How the data were processed

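RNA of sorted Paneth cells was sequenced after a TruSeq stranded mRNA preparation, with 1 library per mouse. The sort kept cells high for CD24 and c-Kit and negative for CD31, CD45 and TER119. The authors deposited raw counts per Ensembl gene, without normalization. Their processing notes name STAR 2.7.0a, FastQC 0.12.0, DESeq2 and mm39; the counting program, the annotation and the use of strand were not stated.

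Of the 55414 identifiers, 54749 were found in GENCODE M39 (GRCm39). CPM used total counts and TPM the summed exon length. Diets were compared with edgeR 4.0.16 (TMM, expression filter, robust quasi-likelihood test, Benjamini-Hochberg adjustment, threshold 0.05) in R 4.3.3, with DESeq2 1.42.0 as an alternative. Log2 CPM for correlations used a prior count of 2.0. The fit across genes was checked on simulated data. Sequence searches, tests over mice and figures used Python 3.11.15.

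The 7 genes and all lists were chosen with earlier results of these data known. Named are the 7 genes; of each pathway list, any gene called, the 2 highest and 2 lowest log2 differences (mean of at least 1.0 CPM) and the 2 most abundant genes, of which the text gives a selection; and the 5 genes nearest to *Esrrg*, *Esrra* and *Ppargc1a*. *Top2a* and the mitochondrially encoded genes without a value were named after their values were seen. Alternatives covered the scaling, the filter, the test, the robust option, the replicate block, each mouse left out, the pseudocount, the length and the centring by diet. No columns of other samples were present.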

Additional observations from a re-analysis of the deposited data

How the results depend on the processing

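The number of genes called, 44, became 11 when scaled by total counts alone (5 higher, 6 lower), 25 without the robust option, 251 without the expression filter and 134 with DESeq2, and it ran from 8 to 36 with 1 mouse left out (8 without control replicate 2 or 4, 13, 17 and 26 without replicates 2, 4 and 1 of the zinc depleted diet). Pathway lists had 1 gene called without the filter and 1 with DESeq2, *Acadl* in both, and 0 in the other fits. *Esrrg* stood at -1.58, past no threshold, by total counts alone, and from -1.37 to -1.11 with 1 mouse left out. By total counts alone *Esrra* turned to -0.16 and *Ppargc1a* to -0.29, and *Nrf1* moved to -0.49, *Gabpa* to -0.43 and *Tfam* to -0.36. With 1 mouse left out, *Ppargc1a* ran from -0.17 to 0.44, *Tfam* from -0.16 to 0.078, *Nrf1* from -0.25 to 0.018 and *Gabpa* from -0.17 to 0.078, so their signs are not settled.

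The order of levels rested on the gene length. With the longest transcript *Tfam* against *Esrra* gave -0.36 and *Esrrg* against *Nrf1* -0.67. With no length *Tfam* against *Esrra* gave 0.33 and *Esrra* against *Gabpa* 0.046, both past no threshold, *Esrrg* against *Nrf1* gave -0.33 and *Ppargc1b* against *Ppargc1a* -0.051. With 1 mouse left out, *Tfam* against *Esrra* ran from 0.34 to 0.49 and *Ppargc1b* against *Ppargc1a* from -0.026 to 0.26. With each diet centred, 0 of the 5 nearest genes remained for *Esrrg* and 0 for *Esrra*. The cause of these shifts was not tested.

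Deviations of mice with the same replicate number correlated weakly but positively, at 0.0254 to 0.0900, and 5 of 8 mice correlated best with their own number. Between mice of different numbers r ran from -0.177 to 0.145. Whether the replicate numbers pair the mice was not tested. With the number as a replicate block, 53 genes were called and *Esrrg* stood at -1.21. Depth limits the coactivators most, with 4 to 30 counts per mouse.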
